A study of Homo sapiens with 6 samples.

Results

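OAS2, IFIT1, IFIT3, IFI44, IFI44L, IFI6, CMPK2 and APOL6 are interferon-induced genes whose products act against viruses or are counted among antiviral effectors. All 8 were more abundant in AGS cells treated with SSD than in cells given vehicle, by 1.30-fold for IFI6 to 1.92-fold for IFI44L in mean TPM (a read share corrected for gene length). The 8 genes were chosen by name from the 1099 genes of the deposited table with their higher level in this same comparison already known, so their changes are given as a description, without a test. AGS is an established human gastric adenocarcinoma line, labelled as wild type in every library, and SSD is saikosaponin D, a triterpenoid saponin of the medicinal plant Radix Bupleuri that the study examined as an anti-tumour compound. RNA-seq of polyadenylated RNA was made from 3 vehicle and 3 SSD libraries, and their titles and sample descriptions name no other allele, agent or cell line. The libraries are labelled as AGS with SSD or vehicle, but the protocol fields of the same labels name C4-2B cells and 10 µM of a compound L14-8 for 24 h, and the study's methods give a lower dose of SSD. The dose is therefore not settled here, and neither is the conflict over compound and cell line. The study's methods speak of independent experiments in general, but neither they nor the labels say that these RNA-seq replicates were separate cultures, so the p-values given below measure the spread between these libraries, which may be technical.

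Interferons bind surface receptors that activate the kinases JAK1 and TYK2, which phosphorylate transcription factors of the STAT family. A complex of such factors with IRF9 binds the interferon-stimulated response element (ISRE) in the promoters of interferon-induced genes. Many of these genes are also expressed at a basal level in epithelial cells. In this table none of the 10 interferon genes and none of the 6 interferon receptor subunits listed for the pathway appears, and a gene outside the table has no value here.

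The ISRE core is spelled here as GAAANNGAAA, read on either strand, and the promoter stretches below are shown because the core recurs among the 8 genes. RefSeq windows of 250 bases before to 50 bases after a transcription start (GRCh38.p14) were at hand for 6 of the 8 genes, the exceptions being OAS2 and APOL6. A core match was found in 5 of these 6, and each stretch runs from 25 bases before the first match to 25 bases after the last one. Capitals mark the core, which reads TTTCNNTTTC where the match lies on the other strand, and the sequences run 5′ to 3′ on the strand of the gene.
IFI6, chr1:27672251-27672373, minus strand: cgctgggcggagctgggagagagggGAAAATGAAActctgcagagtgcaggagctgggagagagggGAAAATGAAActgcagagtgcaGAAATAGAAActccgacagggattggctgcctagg
IFI44L, chr1:78620259-78620409, plus strand: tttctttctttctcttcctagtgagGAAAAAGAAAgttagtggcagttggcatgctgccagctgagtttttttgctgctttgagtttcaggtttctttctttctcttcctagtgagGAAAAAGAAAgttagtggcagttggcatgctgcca
IFI44, chr1:78649746-78649805, plus strand: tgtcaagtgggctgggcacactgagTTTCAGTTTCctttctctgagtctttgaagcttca
IFIT3, first start, chr10:89327816-89327909, plus strand: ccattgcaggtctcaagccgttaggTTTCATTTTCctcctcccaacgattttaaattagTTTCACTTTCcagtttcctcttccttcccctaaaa
IFIT3, second start, chr10:89332410-89332512, plus strand: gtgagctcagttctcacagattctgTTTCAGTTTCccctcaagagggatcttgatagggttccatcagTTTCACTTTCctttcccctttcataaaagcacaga
IFIT1, chr10:89392482-89392554, plus strand: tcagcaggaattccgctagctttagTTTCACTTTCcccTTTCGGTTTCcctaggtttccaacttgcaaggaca

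Counted from the start site at 0, IFI6 held 3 matches, which begin at -156, -115 and -93, of which the first 2 lie in an exact repeat of 29 bases. IFI44L held 2, beginning at -164 and -73, each in 1 copy of an exact repeat of 85 bases. The matches of IFIT1 begin at -116 and -103. IFIT3 held 2 in the window of each of its start sites, and IFI44 held 1, which lies in both of its overlapping windows. CMPK2 held none in 3 windows, which says only that these letters are absent from the windows. The stretch around one of its starts, chosen after the sequences were seen, is shown for contrast and holds a run of 13 bases, gctttcgtttccc, 2 times. Another of its windows holds a longer exact repeat, of 16 bases.
CMPK2, chr2:6865794-6865859, minus strand: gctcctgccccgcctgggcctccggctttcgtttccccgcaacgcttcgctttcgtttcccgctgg

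**Figure D1:**
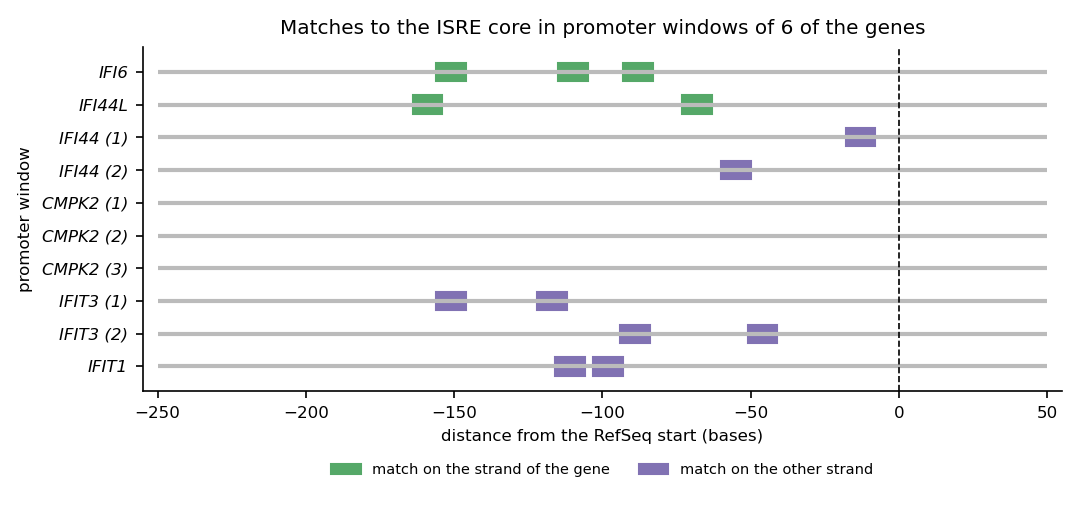
Position of matches to the ISRE core (boxes, coloured by strand) in each RefSeq promoter window (horizontal lines, numbered where a gene has several), in bases from the transcription start (dashed line). IFI6 carried 3 matches, CMPK2 none in any of its 3 windows, and every match lay before the start.

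Among all 27305 genes with a promoter window in the reference, 4.38% held the core at least once. The share was 56.7% among the other interferon pathway genes of the table (17 of 30 with a window, out of 36) and 3.80% among the remaining genes called higher under SSD (10 of 263 with a window, out of 328). No share is given for the genes called lower, since only 75.0% of them have a window, and the 5 of 6 found for the 8 genes rest on the same proportion. The gamma-activated sequence, GAS, another element of interferon-induced promoters, was searched as TTCNNNGAA, a spelling that can overlap an ISRE match. It was found in none of the 6 genes, in 9.38% of all genes, in 20.0% of the other interferon pathway genes of the table (6 of 30) and in 5.70% of the remaining genes called higher (15 of 263). A match is a description of letters in a window and not evidence of binding.

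The table is a selection of genes with small p-values in the study's own comparison, out of 11289 genes tested. Estimated counts over it summed to 3084337 to 4640114 per library, and its genes held 30.1% to 33.1% of each library's TPM, so these sums are not library depth. Libraries were set on a common scale from the ratio of counts to TPM, which reflects the whole library, and every log2 fold change has SSD in the numerator. By the quasi-likelihood test of edgeR, adjusted over 11289 genes by the Benjamini-Hochberg method, calls at 0.05 made 371 genes higher (33.8%) and 212 lower (19.3%). With TMM normalization, which assumes that most genes do not change, the split was 385 and 87. TMM and the size factors of DESeq2 raised the median log2 fold change of the table by 0.071 and 0.091. On the scale used here the lowest positive log2 fold change was 0.21 (HSP90B1), while negative ones included -0.03 (SRSF1). Of 387 positive and 712 negative changes, 371 and 212 passed, although the table was selected on small p-values. The reason was not tested, and the size of every log2 fold change depends on the scale. In 32.2% of the table's genes every SSD library stood above every vehicle library in TPM, and all 8 genes did so, a count that their choice fixes. A change in the share of expressing cells and a change in RNA per cell cannot be told apart in these bulk libraries. Of 41 cell type markers listed to check the label, only TFF1, a gastric mucosal peptide, and COL1A1, a fibroblast collagen, are in the table, so the cell line could not be checked against its markers. TFF1 stood at 81.51, 71.39 and 70.01 TPM with vehicle and at 52.67, 53.46 and 33.29 TPM with SSD (log2 fold change -0.75, SE 0.153, adjusted p = 0.0142). COL1A1 was at 12.83 to 15.76 and 10.00 to 14.85 TPM (log2 fold change -0.25, adjusted p = 0.148).

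OAS2 (ENSG00000111335, chromosome 12, 112978395 to 113011723, plus strand, GRCh38) makes oligoadenylates from ATP when it binds double-stranded RNA, and these activate RNase L, which degrades RNA. It stood at 11.65, 10.92 and 9.65 TPM in vehicle replicates 1, 2 and 3 and at 20.64, 19.39 and 20.82 TPM in SSD replicates 1, 2 and 3. The 3 SSD libraries were close to each other and far above the vehicle libraries. Its mean went from 10.7 ± 1.01 to 20.3 ± 0.779 TPM (SD, n = 3 in this and every mean below), 1.89-fold, with a log2 fold change of 0.91 and a standard error (SE) of 0.0766, the largest log2 fold change of the 8.

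IFIT1 and IFIT3 are tetratricopeptide repeat proteins encoded in one cluster on chromosome 10. IFIT1 (ENSG00000185745, 89392546 to 89406486, plus strand) binds viral RNA whose cap lacks the methylation found on host mRNA and blocks its translation. It was at 32.37, 31.51 and 29.45 TPM with vehicle and at 37.78, 40.82 and 46.59 TPM with SSD, with replicates in the order 1, 2, 3 here and below. The lowest SSD library was above the highest vehicle library, and the means were 31.1 ± 1.50 and 41.7 ± 4.47 TPM, 1.34-fold (log2 fold change 0.43, SE 0.0737). The annotation lists 1 pseudogene copy of IFIT1, so some of its reads may be split with that copy.

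IFIT3 (ENSG00000119917, 89327894 to 89340971, plus strand), which binds IFIT1 and stabilises it on RNA, was at 22.49, 23.18 and 19.62 TPM under vehicle. Under SSD it was at 30.76, 36.89 and 40.80 TPM. The spread was wider under SSD (36.15 ± 5.06 TPM) than under vehicle (21.8 ± 1.89 TPM), yet the groups did not overlap, and the means differed 1.66-fold (log2 fold change 0.73, SE 0.106).

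IFI44L and IFI44 are paralogous GTP-binding-like proteins encoded 3650 bases apart on chromosome 1, plus strand. IFI44L (ENSG00000137959, 78619922 to 78646145) was at 4.76, 5.20 and 5.03 TPM with vehicle and at 7.88, 9.43 and 11.54 TPM with SSD. The vehicle libraries agreed closely and the SSD libraries spread apart, with means of 5.00 ± 0.222 and 9.62 ± 1.84 TPM, 1.92-fold (log2 fold change 0.76, SE 0.153). IFI44 (ENSG00000137965, 78649796 to 78664078) was at 13.86, 11.07 and 8.55 TPM with vehicle and at 14.85, 17.35 and 15.67 TPM with SSD. Here the vehicle libraries were the more spread, and the lowest SSD library exceeded the highest vehicle library by only 0.99 TPM. In TPM this was the narrowest separation of the 8 in proportion to level. On counts set to the common scale the gap was narrower in proportion for IFI6 (4991 against 5612) than for IFI44 (164 against 194). The means of IFI44 were 11.2 ± 2.66 and 16.0 ± 1.27 TPM, 1.43-fold (log2 fold change 0.69, SE 0.159). For these neighbours TPM and counts gave different sizes: the log2 ratio of mean TPM was 0.94 for IFI44L and 0.52 for IFI44, against 0.76 and 0.69 from the counts. The library scale was itself taken from count over TPM, so the difference lies in these genes' own ratio of counts to TPM. Its reason was not tested.

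IFI6 (ENSG00000126709, chromosome 1, 27666061 to 27672218, minus strand) encodes a small membrane protein that limits flavivirus replication at the endoplasmic reticulum and restrains apoptosis. It was at 767.67, 687.79 and 663.32 TPM with vehicle and at 874.84, 901.88 and 984.31 TPM with SSD. Every SSD library was above every vehicle library, but the change was the smallest of the 8, from 706 ± 54.6 to 920.3 ± 57.0 TPM or 1.30-fold (log2 fold change 0.36, SE 0.0632).

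CMPK2 (ENSG00000134326, chromosome 2, 6840570 to 6866635, minus strand) encodes a mitochondrial nucleotide kinase. It was at 3.65, 2.61 and 2.84 TPM with vehicle and at 4.80, 5.27 and 6.83 TPM with SSD, with no overlap. The means were 3.03 ± 0.546 and 5.63 ± 1.06 TPM, 1.86-fold (log2 fold change 0.83, SE 0.189). The SE was the largest of the 8, with 77 to 144 estimated counts per library. An exon of CMPK2 overlaps RSAD2, another interferon-induced antiviral gene, on the opposite strand, and the counting is not stated to use strand, so reads of the overlap cannot be assigned to either gene.

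APOL6 (ENSG00000221963, chromosome 22, 35648395 to 35668409, plus strand) is an intracellular apolipoprotein L with a BH3 domain like that of proteins that promote apoptosis. It was at 0.68, 0.55 and 0.60 TPM with vehicle and at 1.03, 1.04 and 1.18 TPM with SSD. The level was the lowest of the 8, yet the groups were well apart, with means of 0.61 ± 0.0656 and 1.08 ± 0.0839 TPM, 1.78-fold (log2 fold change 0.85, SE 0.149) and 78 to 125 counts behind each value.

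**Figure D2:**
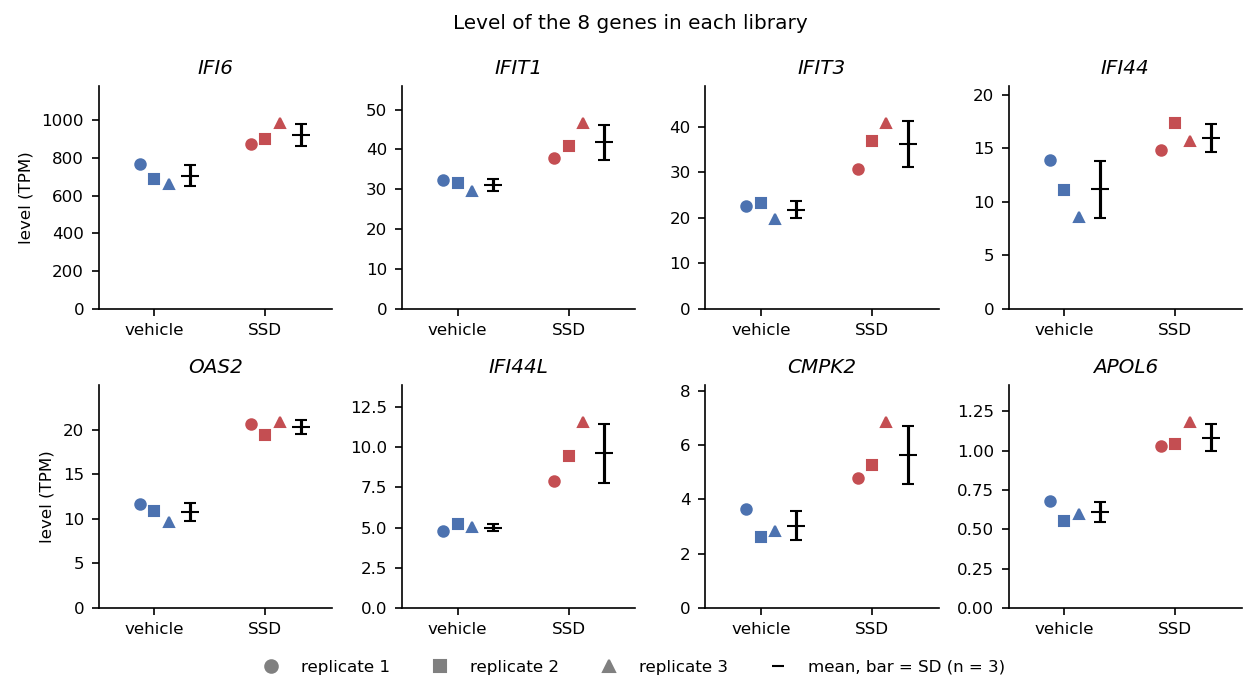
Level in TPM of each of the 8 genes (panels, linear axes from 0) in the 3 vehicle and 3 SSD libraries (points, shape by replicate), with the group mean and SD beside the points. In every panel the 3 SSD points lie above the 3 vehicle points, and relative to level the gap is narrowest for IFI44 (13.86 against 14.85 TPM).

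In the middle of the 8 genes the log2 fold change was 0.75 (median; range 0.36 to 0.91), beside medians of -0.14 over all 1099 genes and 0.38 over the 387 genes with a positive value. The most abundant genes, IFI6 and IFIT1, had the smallest changes in this group, and the largest log2 fold changes were those of OAS2, APOL6 and CMPK2. By level per length, the order under vehicle was IFI6, IFIT1, IFIT3, IFI44, OAS2, IFI44L, CMPK2 and APOL6, and the neighbours IFI44 and OAS2 overlapped. Under SSD OAS2 stood above IFI44 without overlap, and IFIT1 and IFIT3 overlapped instead. IFI6 exceeded the next gene, IFIT1, 22.7-fold with vehicle and 22.1-fold under SSD in mean TPM. The summed level of the 8 genes was 857, 773 and 739 TPM with vehicle and 993, 1032 and 1128 TPM with SSD, of which IFI6 made up 87.3% to 89.8%. Without IFI6 the sums were 89.5, 85.0 and 75.7 TPM against 117.7, 130.2 and 143.4 TPM.

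Ratios within a library showed unequal changes between relatives, again as a description. The IFIT3 to IFIT1 level ratio was 0.695, 0.736 and 0.666 with vehicle and 0.814, 0.904 and 0.876 under SSD, without overlap (0.699 ± 0.0349 and 0.865 ± 0.0458). OAS3, a larger oligoadenylate synthetase whose gene ends 5145 bases before OAS2, had the higher RNA level in TPM in every library. The OAS2 to OAS3 ratio was 0.160, 0.148 and 0.132 with vehicle and 0.230, 0.207 and 0.233 under SSD, also without overlap. IFIT5, which lies 8099 bases beyond IFIT1 and binds RNA with a terminal phosphate, kept a ratio to IFIT1 of 0.427 to 0.598 that overlapped between groups, as did the IFI44L to IFI44 ratio of 0.343 to 0.736. OAS1, IFIT2, IFIT1B, RSAD2 and APOL1 to APOL5 are not in the table and have no value here.

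Other genes of the interferon pathway rose with them. Of 141 genes listed by role, 36 were in the table, and 35 of these were called higher with SSD by the same edgeR test and adjustment. Called higher beside them were 33.8% of the table as a whole, and 371 of its 387 genes with a positive log2 fold change. The 35 of 36 is therefore near what any gene with a positive change showed in this table. None was lower by any test run, since all 36 had a positive log2 fold change, with a median of 0.43 (0.24 to 0.63). In 34 of the 36 every SSD library stood above every vehicle library in TPM, the exceptions being IFIT5 and XAF1. The same held for 354 genes among all 1099 (32.2%), while 387 of the 1099 had a positive log2 fold change. Whether 34 of 36 exceeds the share among other rising genes was not tested. The list was written with earlier results of these data known. Genes outside the table were not tested here, so the count says nothing of the listed genes outside it. Nor does it speak of pathway genes that are not listed. The number called higher fell from 35 to 18 when vehicle replicate 2 was left out, to 21 for vehicle replicate 3, to 19 for SSD replicate 2, to 17 with the replicate number as a block and to 14 with limma on log2 TPM. By contrast, DDX58, IFIH1, USP18, UBE2L6, OAS3, MX2, LGALS3BP, EPSTI1, TAP1 and TAPBP passed under all 17 settings. With the median of the 8 chosen genes at 0.75 and that of the 36 at 0.43, the difference follows a choice made on this contrast and was not tested.

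Listed kinases and transcription factors were among the genes that rose. STAT2, a transcription factor of interferon signalling, was at 19.73, 16.35 and 15.64 TPM with vehicle and at 21.78, 23.58 and 26.03 TPM with SSD. No library of one group reached the other, and its mean went from 17.2 ± 2.19 to 23.8 ± 2.13 TPM (log2 fold change 0.55, adjusted p = 0.00804), and that of IRF9, which binds the ISRE, from 78.9 ± 4.56 to 95.1 ± 3.70 TPM (0.29, adjusted p = 0.0159). The receptor-associated kinases JAK1 and JAK2 had log2 fold changes of 0.25 and 0.56, and IRF2, which competes for IRF sites, of 0.45.

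Cytosolic nucleic acid sensors formed the next group, with 3 of 3 in the table called higher. This and the group counts below stand beside 371 of the 387 table genes with a positive change called higher. DDX58 (RIG-I), which senses short RNA with a triphosphate end, rose from 22.5 ± 0.295 to 31.6 ± 2.75 TPM (log2 fold change 0.49, adjusted p = 0.00233). IFIH1 (MDA5), which senses long double-stranded RNA, rose from 22.8 ± 1.65 to 32.2 ± 2.54 TPM (0.56, adjusted p = 0.00149). IFI16, a DNA sensor, had a log2 fold change of 0.45 (adjusted p = 0.0367) and was called under 9 of the 17 settings. USP18, which removes ISG15 from proteins and damps receptor signalling, rose from 19.9 ± 1.50 to 28.8 ± 0.929 TPM (0.50, adjusted p = 0.00533). UBE2L6, the conjugating enzyme of ISG15, had a log2 fold change of 0.35 (adjusted p = 0.00579).

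Effectors acting on RNA were the largest group, with 9 of 10 called higher, of which IFIT5 was called under 10 of the 17 settings. OAS3 was at 72.91, 73.85 and 73.12 TPM with vehicle and at 89.57, 93.65 and 89.52 TPM with SSD (log2 fold change 0.35, SE 0.0419, adjusted p = 0.00183). Both groups were tight, and the change was smaller than that of OAS2. EIF2AK2 (PKR), the kinase that halts translation on double-stranded RNA, changed by 0.38 and ADAR, which edits adenosine to inosine, by 0.24 on the log2 scale. The helicases DDX60 and DDX60L changed by 0.43 and 0.63, SAMD9 by 0.52, ZC3HAV1, which directs decay of viral RNA, by 0.46, IFIT5 by 0.35 and the deaminase APOBEC3C by 0.29. SLFN5 was at 17.57 to 19.42 TPM with vehicle and at 19.47 to 24.61 TPM with SSD, and did not pass (0.36, adjusted p = 0.0723).

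Among effectors at membranes or of virus entry, MX2, a dynamin-like GTPase that restrains HIV, was at 13.68, 14.36 and 12.80 TPM with vehicle and at 18.53, 22.58 and 24.34 TPM with SSD (log2 fold change 0.60, adjusted p = 0.00327). LGALS3BP, a secreted glycoprotein, changed by 0.33 and TRIM21, a cytosolic antibody receptor, by 0.42. PARP9, PARP12 and PARP14, ADP-ribosyltransferase family members, had log2 fold changes of 0.41, 0.43 and 0.45, and DTX3L, the ubiquitin ligase that pairs with PARP9, of 0.43. EPSTI1, XAF1, HELZ2, IFI30 and SP100 had values of 0.58, 0.58, 0.43, 0.36 and 0.33. All 9 genes of this mixed class in the table passed the edgeR test, but XAF1 and SP100 were called under only 10 of the 17 settings. The peptide transporter subunit TAP1 rose from 31.2 ± 1.05 to 41.3 ± 2.17 TPM (0.42, adjusted p = 0.00388), and TAPBP and ERAP2, which load and trim peptides for MHC class I, changed by 0.35 and 0.40.

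**Figure D3:**
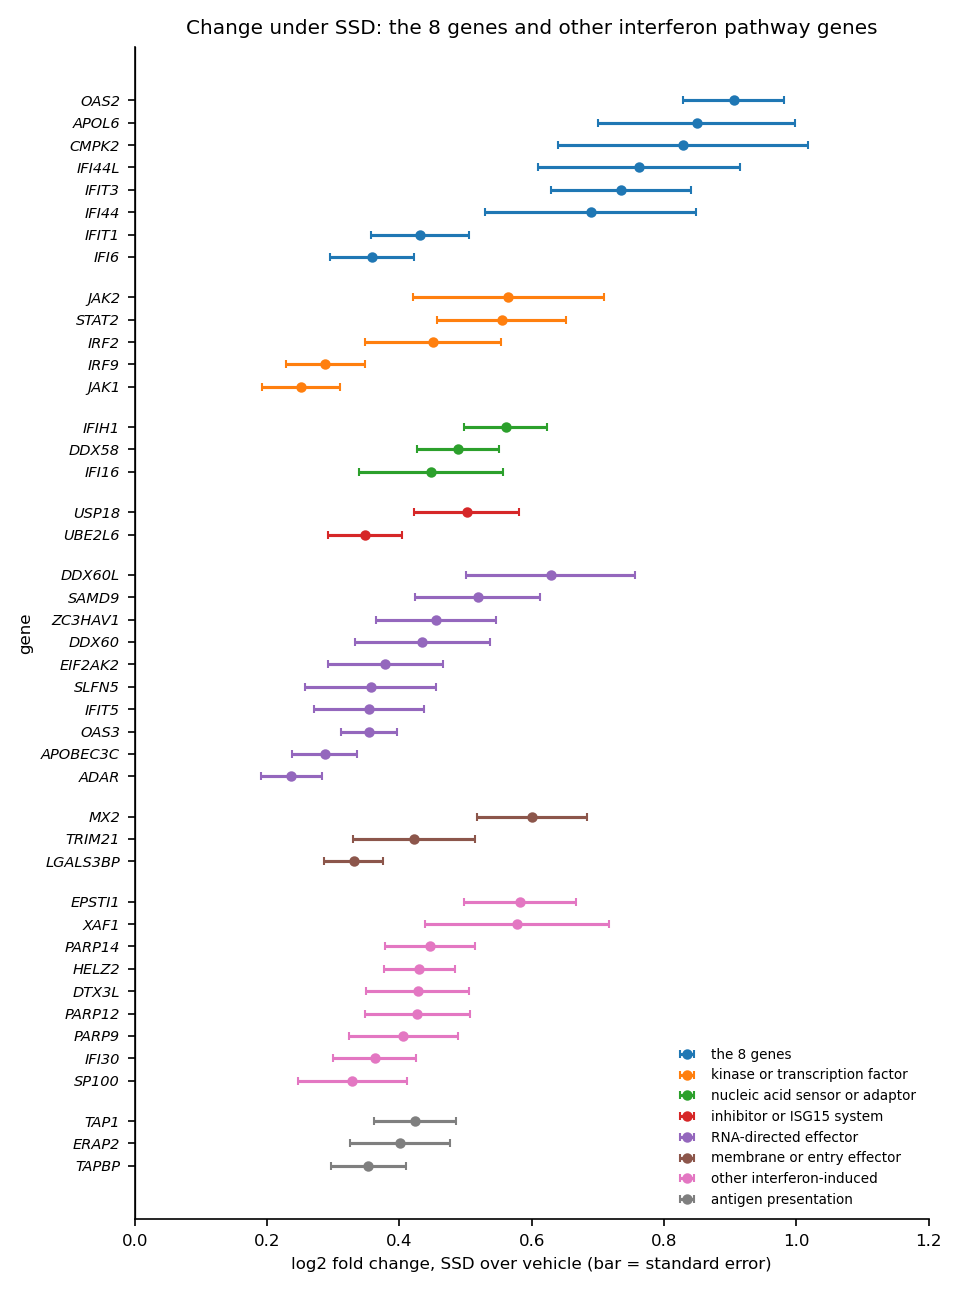
Log2 fold change of SSD over vehicle (points) with its standard error (bars) for the 8 genes and for 35 other interferon pathway genes of the table, coloured by role. Every point lies above 0, where the 8 genes run from 0.36 (IFI6) to 0.91 (OAS2) and the others from 0.24 (ADAR) to 0.63 (DDX60L).

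The 8 genes also shared a pattern within groups, which the choice on the group difference did not use. SSD replicate 3 was the highest SSD library in 7 of the 8 genes (87.5%) and SSD replicate 1 the lowest in 7, with OAS2 and IFI44 as the exceptions in the second and first count. Vehicle replicate 1 was the highest vehicle library in 6 of the 8 (75.0%) and vehicle replicate 3 the lowest in 5. Among other genes, SSD replicate 3 was highest in 63.9% of the 36 other pathway genes and in 56.3% of the other 343 table genes with a higher mean under SSD. SSD replicate 1 was the lowest SSD library in 63.9% of the 36 and 58.0% of the 343. Vehicle replicate 1 was the highest vehicle library in 55.6% and 49.6% of them, so much of the pattern was shared by other genes that rose. For vehicle replicate 3 as the lowest vehicle library, the shares were 55.6% of the 36 and 32.7% of the 343, and in the 343 vehicle replicate 2 was the lowest more often (41.4%). The mean profile of the 8 genes, in log2 units relative to the vehicle mean, was 0.13, -0.02 and -0.11 with vehicle and 0.57, 0.69 and 0.85 under SSD. What set these libraries apart was not tested, and the median change of the 8 genes was 0.67 when SSD replicate 3 was left out and 0.86 when SSD replicate 1 was.

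Nearness to this mean profile was measured for every other gene of the table as the root mean square difference in log2 units over the 6 libraries. The 5 nearest were BMF (0.0626), PRSS2 (0.0713), EPSTI1 (0.0783), MX2 (0.0853) and PCDHB13 (0.0855), of which EPSTI1 and MX2 are on the interferon list. BMF, a BH3-only protein that promotes apoptosis, was at 10.34, 8.39 and 8.47 TPM with vehicle and at 12.66, 14.98 and 15.63 TPM with SSD. PRSS2, an anionic trypsinogen, was at 810.99, 773.45 and 756.90 TPM and at 1220.38, 1191.27 and 1324.59 TPM, though its reads may be shared with near-identical trypsinogen copies. PCDHB13, a protocadherin of a clustered family whose copies may share reads, was at 2.97 to 3.24 TPM with vehicle and at 4.41 to 5.27 TPM with SSD. Among the 8 genes themselves the distance was 0.0762 for IFIT3, then 0.115 for APOL6, and up to 0.23 for IFI6. BMF and PRSS2 were thus nearer to the mean than any of the 8. All 5 were nearer than every one of the 8 other than IFIT3, so the profile was not particular to the 8 genes. The measure includes the size of the group difference.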

How the data were processed

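RNA-seq libraries of AGS cells, 3 with vehicle and 3 with SSD, were grouped by their labels and joined to the columns of 1 deposited table by arm and replicate number, the treated columns carrying the code of the compound in the labels' protocol. The authors' estimated counts (33.5% not whole at a tolerance of 0.001) were rounded here, and the TPM values are as deposited, scaled by the authors over each whole library. The aligner and counter are not given in the sources used here; the submitters' processing notes name GRCh38.p13. The deposited p-value and adjusted p-value columns served only to derive the number of genes tested by the authors, 11289, and the deposited log2 fold changes, fold changes and group means were not used. The 8 genes and all lists were chosen with earlier results of these data known.

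Counts were fitted with edgeR 4.0.16 (quasi-likelihood, R 4.3.3) on a whole-library scale, the median of count over TPM relative to vehicle replicate 1, with Benjamini-Hochberg adjustment over 11289 genes, genes outside the table being taken as having larger p. This scale was preferred to TMM because the table was selected for change. The filter, a mean of at least 10 counts, kept all 1099 genes (lowest mean 59). Calls needed an adjusted p under 0.05. An exact two-sided permutation test of 3 against 3 libraries cannot give a p below 0.1. Alternatives were other scales, DESeq2 1.42.0, limma 3.58.1, other filters, a replicate block and leaving out each library. Named are the 8 genes, every listed pathway gene in the table except 1 that is counted but not reported here, the 5 nearest profiles, and relatives and neighbours. Gene positions came from GENCODE release 29 (1085 identifiers matched) and promoters from RefSeq (GRCh38.p14, matched by symbol or synonym), searched on both strands.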

Additional observations from a re-analysis of the deposited data

How the results depend on the processing

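The 8 genes kept a positive log2 fold change under all 17 settings, the main one included. These refit the same libraries, so the choice of the 8 on this contrast favours that sign. Having no filter, or adjusting over the table alone, leaves every fold change as in the main setting. The median of the 8 stayed within the replicate spread of 0.75 except with limma on log2(TPM + 1). There the median was 0.60 and the value of APOL6 0.37, on a scale that understates low genes. Leaving out 1 library gave medians of 0.67 to 0.86. Table genes called lower (212) numbered 87 with TMM, 86 with DESeq2 size factors, 126 with the table total as scale, 579 with adjustment over the table alone, 60 and 52 with limma at pseudocounts of 1 and 0.1 TPM, and 91 with a replicate block. Genes called higher (371) numbered 122, 117 and 184 under the last 3. Pathway genes called higher (35) numbered 14 with limma at either pseudocount and 17 with the block, and none was lower under any setting. Without 1 library, 172 (without vehicle replicate 2) to 382 (without SSD replicate 1) table genes were higher, 77 (without vehicle replicate 2) to 284 (without SSD replicate 3) lower, and 18 (without vehicle replicate 2) to 36 (without SSD replicate 1) pathway genes higher, with fewer samples in each fit. Otherwise the cause was not tested. Deviations of same-numbered libraries correlated at -0.0554, 0.0389 and 0.0219. With 3 libraries a group and genes selected on the group difference, these values cannot exclude a pairing by replicate number. The block also spends residual degrees of freedom. Limits are the selection of the table on the outcome, 3 libraries a group, and counts of 77 to 144 behind CMPK2 and APOL6.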
